A study of Saccharomyces cerevisiae with 78 samples.

Results

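The strain rpl34aDi of budding yeast, Saccharomyces cerevisiae, lacks the intron of RPL34A, 1 of the 2 genes for the large-subunit ribosomal protein eL34, and its RNA was set against wild-type RNA on 6 of the 78 2-colour arrays of the series. The arrays were chosen by strain label alone, and they are 3 replicates, each hybridised once with the mutant in Cy3 and once with the mutant in Cy5. The rest of the arrays hold 16 further strains, each with the intron of another ribosomal-protein gene removed, against wild type. All strains were haploids grown from a diploid parent in which the intron had been replaced and then removed, so the coding exons of RPL34A stayed in place at their own locus. The wild type came from the same parent, and mutant and wild-type cultures were grown side by side in rich glucose medium. The labels do not say whether the replicates came from separate cultures or clones, so the spread behind the p-values below may be technical. That spread is shared over strains, except where the 3 replicates of rpl34aDi are said to be fitted alone. Each SD printed is that of the 3 replicates of rpl34aDi. Replicate 1 was hybridised on array set A, a set being arrays that share the first part of the array name, and replicates 2 and 3 on array set C.

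Ribosomal-protein genes hold a large share of the introns that yeast splices, and because they are heavily transcribed their transcripts make up much of the work of the spliceosome. Many of them exist as a pair of paralogs that arose by duplication of the whole genome, and RPL34A and RPL34B are such a pair, both with an intron. Introns of some ribosomal-protein genes are known to set the level of their own or the paralog's mRNA, as in RPL30, whose protein binds its own transcript and blocks its splicing.

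Each gene had an exon value, and each intron gene also an intron value and a splice-junction value, all as log2 of mutant over wild type. A value of 0 means equal signal and 1 a doubling of the signal in the mutant. The paper states that these arrays give smaller fold changes than qPCR, so folds below are ratios of array signal. The index is the intron value minus the exon value, a measure of unspliced relative to total transcript. On the exon scale 941 genes were measured, and 228 genes had intron, junction and index values. A gene was called where limma's test of its mean against 0, with a spread shared over all 17 strains, gave an adjusted p under 0.05 after Benjamini-Hochberg correction over all genes of that scale.

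The 3 replicates did not repeat one another equally. Across genes, exon values of replicates 2 and 3 correlated at r = 0.88 (934 genes), and at r = 0.63 without the mating-type genes described below, while replicate 1 correlated with replicate 2 at r = -0.01 and with replicate 3 at r = 0.02. The 2 dye orientations of replicate 1 correlated at r = -0.12 over 898 genes, against r = 0.60 in replicate 2 and r = 0.66 in replicate 3. Between 784 and 3210 of the 9216 spots of an array had no value. The interquartile range of the ratios was 0.82 on the replicate 1 array with the mutant in Cy3, the widest of the 6, and 0.29 to 0.52 on the other 5. Replicate 1 is the only one of rpl34aDi on array set A, and no other strain has more than 1 replicate there. Tests that use set A alone take their spread from replicates on other array sets and have no replicate check of their own.

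The deleted intron had the lowest of the 228 intron values in this strain. The RPL34A intron, whose gene YER056C-A lies on chromosome V, had log2 ratios of -1.05, -2.13 and -2.73 in replicates 1, 2 and 3. The mean of -1.97 ± 0.85 (SD, n = 3) is 0.255 of the wild-type signal, with an adjusted p of 1.5e-08 in limma. All 6 arrays were below 0, in both dye orientations, which fixes the direction of the ratios. In the 16 other strains the same feature lay between -0.25 and 0.95 over 36 replicates, and no replicate of another strain overlapped those of rpl34aDi. The difference between rpl34aDi and the mean of the other strains was -2.09 (adjusted p = 1.2e-08, limma).

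The RPL34A exons had a mean near 0, with single arrays on both sides of 0. Exon values were 0.40, -0.00 and -0.03 in replicates 1, 2 and 3, a mean of 0.12 ± 0.24 (SD, n = 3; adjusted p = 0.633, limma), which was not called. The single arrays spread more widely than these means show. With the mutant in Cy3 they gave 0.78, -0.35 and -0.47, and with the mutant in Cy5 0.01, 0.34 and 0.42. The Cy5 array was thus the lower in replicate 1 and the higher in replicates 2 and 3. The other strains spanned -0.31 to 0.76 for these exons, a range that holds all 3 replicates of rpl34aDi. With array set A alone the exon value of 0.40 passed the threshold (adjusted p = 0.0168), and the difference of array set C minus array set A was -0.41 (adjusted p = 0.0404, limma).

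The junction feature of RPL34A, which spans the join of the exons, had values of 0.18, -0.90 and 0.03, a mean of -0.23 (adjusted p = 0.394). In replicates 1 and 2 that value rests on the Cy5 array only, as the other array had none. The index was -1.44, -2.13 and -2.70, a mean of -2.09 ± 0.63 (SD, n = 3; adjusted p = 3.55e-11, limma). Its value follows from the deletion itself.

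The paralog RPL34B (YIL052C, chromosome IX) was lower on the exon scale. Its exon values were -0.13, -0.39 and -0.27 in replicates 1, 2 and 3, a mean of -0.26 ± 0.13 (SD, n = 3), or 0.834 of wild type, with an adjusted p of 0.0349 in limma. All replicates lay below 0, and 5 of 6 arrays did, the exception being the replicate 3 array with the mutant in Cy5 at 0.00. Among the ribosomal-protein genes with an exon value it ranked 3 from the lowest, after RPL30 and RPL1A. Over all genes it was rank 46 of 941.

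The mean of rpl34aDi was the lowest RPL34B exon mean of the 17 strains, the next being that of rps23aDi at -0.19 (n = 1), but most other strains also lay below 0. In their 36 replicates the RPL34B exon value had a median of -0.09 and a range of -0.37 to 0.17, and 28 of the 36 were below 0, 26 lay above all replicates of rpl34aDi and 0 below all of them. The difference of rpl34aDi from the mean of the other strains was -0.17 and did not pass the threshold (adjusted p = 0.265, limma). Within array set C alone it was -0.26 (adjusted p = 0.0188), and within array set A alone it was 0.03 (adjusted p = 0.859). The call against 0 was lost without replicate 2, where the mean was -0.20, and without replicate 3, where it was -0.26 with an adjusted p of 0.097.

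No call was made for the intron, junction or index of RPL34B. The intron values were -0.09, -0.16 and -0.05, a mean of -0.10 (adjusted p = 0.629). The junction values were -0.17, 0.04 and -0.02 (adjusted p = 0.914). The index was 0.05, 0.22 and 0.22, a mean of 0.16 ± 0.10 (SD, n = 3; adjusted p = 0.434, limma), inside the range of -0.21 to 0.45 in the other strains.

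**Figure D1:**
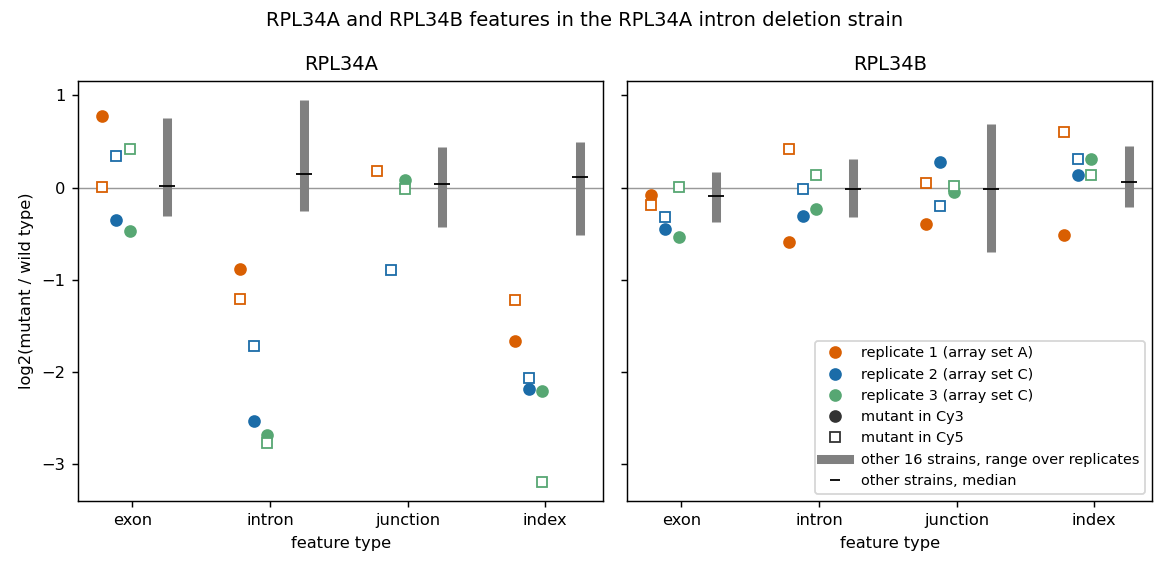
Log2 ratio of mutant over wild type (y axis) for each feature type (x axis) of RPL34A (left) and RPL34B (right) in rpl34aDi; each marker is 1 of the 6 arrays, coloured by replicate, filled for the mutant in Cy3 and open for the mutant in Cy5. Grey bars give the range over up to 36 replicates of the 16 other strains and black ticks their median. The RPL34A intron and index lie below the other strains on all arrays, while the RPL34B exon values lie between -0.54 and 0.00, partly within the grey range.

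Genes that mark the mating type differed sharply between the replicates. Haploid yeast cells are either a cells, which make a-factor from MFA1 and MFA2, or alpha cells, which make alpha-factor from MF(ALPHA)1 and MF(ALPHA)2, carry the a-factor receptor STE3, and express the regulators MATALPHA1 and MATALPHA2. Of the marker genes listed, both measured a-cell genes and all 5 measured alpha-cell genes are given here. STE2, STE6, BAR1, AGA2, ASG7 and SAG1 had no exon value.

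MFA2 was at 0.72, -4.38 and -4.01 in replicates 1, 2 and 3, and MFA1 at 0.51, -3.41 and -2.07. MF(ALPHA)1 was at 0.12, 6.78 and 6.26, and STE3 at -0.12, 2.66 and 2.66. MATALPHA1 was at 0.49, 3.54 and 3.23, and MATALPHA2 at -0.13, 1.66 and 1.39. The replicate 1 values of MF(ALPHA)1 and MATALPHA1 rest on the Cy5 array only, as the other array had none. Replicates 2 and 3 thus carried high alpha-cell and low a-cell signals relative to wild type, and replicate 1 did not. The mutant strains were haploid, and whether mutant and wild type were of opposite mating type in replicates 2 and 3 was not tested.

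Of these genes only MF(ALPHA)2, at 0.07, 3.49 and 3.37, was called against 0 (mean 2.31 ± 1.94 (SD, n = 3), adjusted p = 0.0352, limma). All 7 were called for the difference between array sets, as were 13.2% of all genes, and it ran from -4.91 for MFA2 (adjusted p = 1.03e-06) to 6.40 for MF(ALPHA)1 (adjusted p = 0.00104). Other strains also had such values. MFA2 at or below -1 together with STE3 at or above 1 occurred in 13 of 16 replicates and 7 of 9 strains on array set C, and in 1 of 8 replicates on array set A. The mating type of neither mutant nor wild type is given in the sources used here, and its part in the results below was not tested. The difference between sets went beyond the mean of the 5 other strains hybridised on both sets for MFA2 (-3.13, adjusted p = 0.000866), MFA1 (-2.66, adjusted p = 0.0134) and MF(ALPHA)2 (1.999, adjusted p = 0.0286), and did not for MF(ALPHA)1 (2.85, adjusted p = 0.112), STE3 and MATALPHA2 (adjusted p = 0.0777 each) or MATALPHA1 (adjusted p = 0.623).

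**Figure D2:**
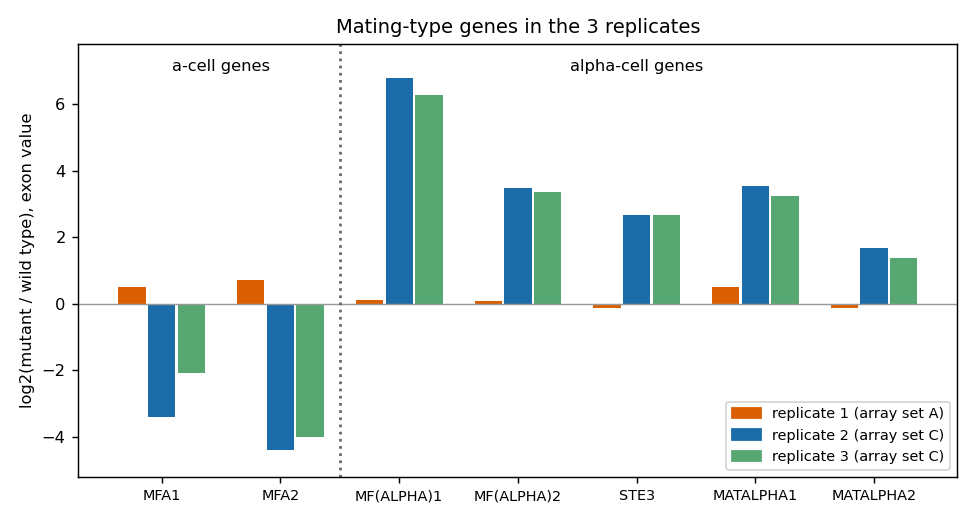
Exon values as log2 of mutant over wild type (y axis) for the 2 a-cell and 5 alpha-cell genes measured (x axis), with 1 bar for each replicate of rpl34aDi, the mean of its arrays with a value. Bars of replicates 2 and 3 run from -4.38 to 6.78, and those of replicate 1 from -0.13 to 0.72.

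On the exon scale 22 of 941 genes were called, which is 2.34% of those tested, 7 higher (0.744%) and 15 lower (1.59%). At an unadjusted p under 0.05 there were 169, and the median over all genes was -0.01. The higher genes were MF(ALPHA)2, GUP2, YNCB0013W, FUS3, RPS10B, LSM3 and RPL33A. The lower genes were RPL34B, RPL1A, RPS6A, HIR1, HIS2, SLH1, NHP6B, UFD1, RPC82, PPZ1, NMA1, DBR1, TDA5, PSE1 and YSH1. Apart from MF(ALPHA)2, GUP2 and HIR1, the called means lay between -0.40 and 0.74. The count depended on the replicates: without replicate 1 it was 40 genes, 12 of them among the 22, without replicate 2 it was 0, and without replicate 3 it was 7, of which 6 were among the 22. With array set as a block, and with the 3 replicates of rpl34aDi fitted alone, it was 0.

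YNCB0013W, a nuclear tRNA gene by its RefSeq type, had the lowest p. Its exon values were 0.14, 1.15 and 0.91 in replicates 1, 2 and 3, a mean of 0.74 ± 0.53 (SD, n = 3), or 1.67-fold, with an adjusted p of 0.00304 in limma. The 4 arrays of replicates 2 and 3 gave 0.85 to 1.19, and those of replicate 1 gave 0.28 and 0.00. The highest of 36 replicates of the other strains was 0.42, and their median was -0.06.

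It was also the only gene called on the exon scale when rpl34aDi was set against the mean of the other 16 strains. That difference was 0.77 (adjusted p = 0.00338, limma), 1 gene of 941 or 0.106%, with 118 genes at an unadjusted p under 0.05. On array set C it was 1.11 above the other strains (adjusted p = 6.04e-05), and on array set A 0.09 (adjusted p = 0.786). Without replicate 2 no gene was called in this comparison. Nuclear tRNA genes of 1 family are near-identical in sequence, so which copy gave the signal cannot be told apart.

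A list of all 31 tRNA genes with an exon value, nuclear and mitochondrial, was drawn up after the value of YNCB0013W was seen. The median of the 31 was -0.10 in replicate 1, 0.19 in replicate 2 and 0.15 in replicate 3. None but YNCB0013W was called against 0. YNCB0013W, which prompted the list, counts among the genes called higher in the 2 comparisons that follow. In the comparison with other strains within array set C, 6 of 31 were called, all higher, where 3.51% of all genes were called higher. For the difference between array sets 3 were called higher on set C and 1 lower, where 7.14% and 6.07% of all genes were, YNCA0006C among the higher (-0.37, 0.50 and 0.57 in replicates 1, 2 and 3).

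FUS3, the MAP kinase of the mating pheromone pathway, was the most even of the raised genes. It was at 0.55, 0.62 and 0.61 in replicates 1, 2 and 3, a mean of 0.59 ± 0.03 (SD, n = 3), or 1.51-fold, with an adjusted p of 0.0231 in limma. The 6 arrays lay between 0.16 and 0.94. The relation to the mating-type markers above was not tested. For array set C minus array set A, which holds 1 replicate, FUS3 differed by 0.06. In the other strains it had a median of 0.19 and reached 0.64, and the difference from their mean was 0.49 (adjusted p = 0.126). Within array set A the difference was 0.57 (adjusted p = 0.0372), and within array set C 0.31 (adjusted p = 0.101).

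Of 8 pheromone-pathway genes measured, FUS3 alone was called against 0, where 2.34% of all genes were. KAR4, a transcription factor for nuclear fusion, was at 0.06, 0.82 and 0.62 (adjusted p = 0.181). SST2, which switches the receptor's G protein off, was at 0.12, 0.48 and 0.45 (adjusted p = 0.34), and STE12, the pathway's transcription factor, at -0.00, 0.35 and 0.38 (adjusted p = 0.303). The kinase gene STE11 was the only one of the 8 called between array sets, by 0.56 (adjusted p = 0.00752), where 13.2% of all genes were.

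Of 69 large-subunit genes other than RPL34A and 52 small-subunit genes, 5 were called, where 2.34% of all genes were, and the medians of both subunits lay near 0. RPS10B, for a small-subunit protein, was at 0.56, 0.46 and 0.35 in replicates 1, 2 and 3, a mean of 0.46 ± 0.11 (SD, n = 3), or 1.37-fold (adjusted p = 0.0349, limma). All 6 arrays were above 0, from 0.25 to 0.73. It was above the other strains within array set C by 0.34 (adjusted p = 0.0112) and within array set A by 0.37 (adjusted p = 0.0233), while over both sets together the difference was 0.37 with an adjusted p of 0.18. Its junction value was 0.32 (adjusted p = 0.107), its intron value 0.17 and its index -0.29.

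RPL33A, for a large-subunit protein, was at 0.41, 0.24 and 0.20, a mean of 0.28 ± 0.11 (SD, n = 3; adjusted p = 0.0349, limma). In the other strains it had a median of 0.07 and reached 0.29, and 33 of 36 replicates were above 0. Its junction value ran the other way in 2 of 3 replicates, at -0.24, -1.17 and 0.03. RPL1A was at -0.32, -0.21 and -0.27, a mean of -0.26 ± 0.05 (SD, n = 3; adjusted p = 0.0349). RPS6A was at -0.02, -0.31 and -0.39, a mean of -0.24 ± 0.20 (SD, n = 3; adjusted p = 0.0476), and it was called between array sets (-0.33, adjusted p = 0.0432).

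The paralogs of these genes code for the same or nearly the same protein and can share probe sequence, as can RPL34A and RPL34B. RPS10A averaged 0.17, RPL33B 0.12 and RPS6B -0.09, each on the same side of 0 as its copy and none called. Over all 45 pairs with both copies measured, 25 had both means on the same side of 0, a count given as description.

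Of the 69 large-subunit genes 1 was called higher (0.744% over all genes) and 2 lower (1.59% over all genes), with a median of 0.03, against -0.01 over all genes. Their median was 0.11 in replicate 1, 0.01 in replicate 2 and -0.01 in replicate 3. Of the 52 small-subunit genes 1 was called higher and 1 lower, and the median was -0.00. The lowest ribosomal-protein gene was RPL30, at -0.21, -0.44 and -0.41, a mean of -0.35 ± 0.12 (SD, n = 3), which missed the threshold (adjusted p = 0.051), and its value in the other strains had a median of -0.14. Of the 9 genes known or proposed to act on ribosomal-protein gene transcription, including RAP1, FHL1 and IFH1, none was called, and the median was -0.03.

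Several called genes act in RNA metabolism. DBR1, the enzyme that opens intron lariats after splicing, was at -0.34, -0.43 and -0.12, a mean of -0.30 ± 0.16 (SD, n = 3), or 0.814 of wild type (adjusted p = 0.0349, limma). LSM3, a subunit of the ring that binds U6 RNA and of the ring that acts in mRNA decay, was at 0.45, 0.28 and 0.24, a mean of 0.32 ± 0.11 (SD, n = 3; adjusted p = 0.0349). The other strains had a median of 0.04 and a highest value of 0.41 for LSM3.

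YSH1, the endonuclease that cleaves pre-mRNA before polyadenylation, averaged -0.26, and RPC82, a subunit of RNA polymerase III, -0.30. RPC82 was at -0.57, -0.18 and -0.15, and the replicate 1 array with the mutant in Cy3 alone gave -1.004. PSE1, a carrier that imports ribosomal proteins into the nucleus, was at -0.30, -0.19 and -0.33, and SLH1, an RNA helicase, at -0.10, -0.49 and -0.40. Each had an adjusted p of 0.0349 in limma. For PSE1 the other strains had a median of -0.07, and 28 of their 36 replicates were below 0.

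Taken as groups, these functions had medians near 0. Of 88 splicing factors 1 was called higher and 1 lower, with a median of 0.02. Of 45 RNA export genes 1 was called lower (median 0.03), and of 32 mRNA decay genes none was (median -0.02). Of 17 tRNA processing genes and 16 translation factors none was called, with medians of 0.00 and -0.00. Each share lies near or below the 2.34% called over all genes. The 132 intron genes that code for no ribosomal protein had a median exon value of -0.02, with 2 called lower, NHP6B and TDA5.

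The remaining called genes have other functions. HIS2, which acts in histidine synthesis, was at -0.33, -0.49 and -0.38, NMA1, in NAD synthesis, at -0.25, -0.32 and -0.33, and NHP6B, a chromatin protein with an intron, at -0.15, -0.40 and -0.40. For NHP6B the other strains had a median of -0.13, and 28 of their 36 replicates were below 0. PPZ1, a protein phosphatase, averaged -0.30, UFD1, a partner of the Cdc48 segregase, -0.31, and TDA5 -0.30. All 3 replicates of each lay below 0, and for TDA5 every one of 36 replicates of other strains was above all those of rpl34aDi.

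Means of GUP2 and HIR1 rested on a single array. GUP2 was at 0.23, 2.60 and 0.10, a mean of 0.98 (adjusted p = 0.0478, limma), and the replicate 2 value came from 1 array, with no value on the other. HIR1, a subunit of a histone chaperone, was at -0.26, -1.75 and -0.27 (adjusted p = 0.0447), and the replicate 2 arrays gave -3.47 with the mutant in Cy5 and -0.03 with the mutant in Cy3. Without replicate 2 the means were 0.16 for GUP2 and -0.27 for HIR1.

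**Figure D3:**
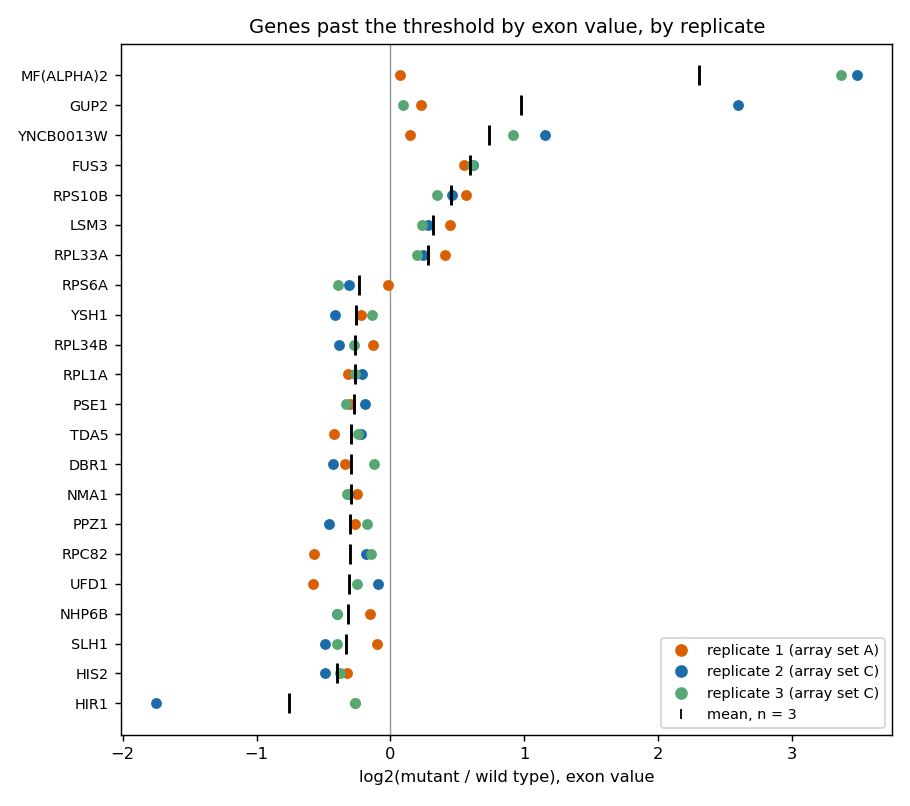
Exon values as log2 of mutant over wild type (x axis) for the 22 genes past the threshold (y axis, ordered by mean) in rpl34aDi, with 1 point for each replicate and a black tick for the mean of 3. FUS3, RPS10B, LSM3 and RPL33A were above 0 in every replicate, the mean of MF(ALPHA)2 stands on values of 3.49 and 3.37 in replicates 2 and 3, and those of GUP2 and HIR1 on values of 2.60 and -1.75 in replicate 2.

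Of the 941 genes, 933 had a value in every replicate and 403 of these had the same sign in all 3, 182 above 0 and 221 below. The largest such changes that were not called were led by MF(ALPHA)1 and MATALPHA1. HMRA2, a silent cassette gene that shares sequence with MATALPHA2, was at 0.12, 1.83 and 1.44 (adjusted p = 0.051). GTS1 was at 1.24, 0.97 and 0.91, a mean of 1.04 ± 0.17 (SD, n = 3), or 2.06-fold, with an adjusted p of 0.25. The other strains ranged from -1.40 to 2.39.

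TDH1, a glyceraldehyde-3-phosphate dehydrogenase gene, was at 1.46, 0.08 and 0.11 (adjusted p = 0.667). On the low side, PFS1, a sporulation gene, was at -0.77, -0.90 and -0.02 (adjusted p = 0.0742), and the tRNA gene YNCD0013C at -0.75, -0.34 and -0.25, around the median of -0.50 in the other strains. ADR1, an activator of genes repressed by glucose, was at -0.06, -0.54 and -0.59, with a median of -0.33 in the other strains. DAL80, a repressor of nitrogen catabolic genes, averaged -0.37, PIP2, a regulator of fatty acid oxidation, -0.33, and RNA14, a subunit of a cleavage factor, -0.32.

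Outside the deleted gene the introns gave few changes. On the intron scale 3 of 228 genes were called (1.32%), with 27 at an unadjusted p under 0.05. Besides RPL34A these were UBC4, a ubiquitin-conjugating enzyme, and NHP6B. The UBC4 intron was at 0.36, 0.39 and 0.59 in replicates 1, 2 and 3, a mean of 0.45 ± 0.12 (SD, n = 3), or 1.36-fold (adjusted p = 0.000628, limma). All 3 values were above every one of 36 replicates of the other strains, whose highest was 0.32, and the difference from their mean was 0.43 (adjusted p = 0.00229), 1 of 2 genes called in that comparison (0.877%), the other being RPL34A.

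The exon value of UBC4 was 0.20, -0.05 and -0.05 (adjusted p = 0.897), so its index was 0.15, 0.45 and 0.63, a mean of 0.41, which was not called (adjusted p = 0.21). Its paralog UBC5 had intron values of 0.25, 0.16 and 0.12. The NHP6B intron was at -0.43, -0.26 and -0.15 (adjusted p = 0.0237), beside an exon mean of -0.32, and its index was 0.03.

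By index 1 of 228 genes was called (0.439%), RPL34A itself, with 37 at an unadjusted p under 0.05. Among genes above 0 in all 3 replicates the highest mean indices were those of CPT1, a phospholipid synthesis gene, at 1.48, 0.28 and 0.38, and IAI11 at 0.96, 0.50 and 0.25 (adjusted p = 0.154 each). RPL32, for a large-subunit protein, was even at 0.42, 0.41 and 0.28 (adjusted p = 0.214), and SRC1, a nuclear membrane gene with alternative splicing, averaged 0.36. Among those below 0 in all 3, after RPL34A, were QCR10, of respiratory complex III, at -0.46, TUB1, alpha-tubulin, at -0.39, EFB1, a translation elongation factor, at -0.36, and RPS30B at -0.31, none called.

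The median index was -0.02 over the 52 other large-subunit genes, 0.04 over the 43 small-subunit genes and 0.01 over 132 other intron genes, against 0.00 over all 228. On the junction scale limma called 0 of 228 genes, with 34 at an unadjusted p under 0.05, 19 above 0 and 15 below.

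The replicates on array set C were then set against the replicate on array set A. Of 939 genes 124 were called for that difference (13.2%), 67 higher (7.14%) and 57 lower (6.07%) on set C. Since set A holds 1 replicate of rpl34aDi, that replicate and its array set cannot be told apart. The p-values rest on the spread between replicates of a strain on the same array set, those of rpl34aDi on set C included. That spread holds no difference between array sets. The dye orientations of the set A replicate correlated at r = -0.12, and the part of this in the calls was not tested. Of the 124, 60 were also called when the mean difference between the same sets in the 5 other strains was taken off, a comparison chosen after the data were seen, which called 71 of 939 genes (7.56%), 36 higher (3.83%) and 35 lower (3.73%).

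Several heat-shock and stress genes were called lower on set C than on set A. HSP104, which takes apart protein aggregates, was at 0.66 in replicate 1, and at -0.68 and -0.68 in replicates 2 and 3, a difference of -1.34 for set C minus set A (adjusted p = 0.00752, limma). SIS1, a partner of Hsp70, was at 0.47 in replicate 1 and at -0.44 and -0.43 in replicates 2 and 3 (-0.90, adjusted p = 1.03e-05). GPD1, which makes glycerol in osmotic stress, was at 0.41, -0.62 and -0.53 (-0.98, adjusted p = 0.00068).

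Of 11 such genes 5 were called lower on set C, where 6.07% of all genes were, and 1, SSA3, higher, where 7.14% were, with a median of -0.42, against 0.02 over all genes. Against 0 over all 3 replicates none of the 11 was called. Against other strains within set C 5 of the 11 were called, all lower, where 5.31% of all genes were called lower, and within set A 2 were called, both higher, where 3.62% were called higher. Beyond the other strains the set difference remained called for SIS1 (-0.61, adjusted p = 0.00174) and GPD1 (-0.65, adjusted p = 0.0243), and not for HSP104 (-0.70, adjusted p = 0.17). In the other strains HSP104 ranged from -1.96 to 1.49.

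Of 25 large-subunit assembly genes 4 were called higher on set C, where 7.14% of all genes were, and none lower, where 6.07% were, with a median difference of 0.24. RRP5, which acts in pre-rRNA processing, was at -0.73, 0.12 and 0.18 in replicates 1, 2 and 3, ERB1 at -0.26, 0.32 and 0.32, and MAK5 at -0.29, 0.26 and 0.21. Of 13 small-subunit assembly genes 3 were called higher and 1, RRP7, lower. Of 69 large-subunit protein genes 3 were called higher and 8 lower, RPL31A the most (0.35, -0.21 and -0.12), with a median of -0.09. Of 52 small-subunit protein genes 1 was called higher and 6 lower, with a median of -0.05. Of 88 splicing factors 9 were called higher, CWC15 among them (-0.34, 0.31 and 0.34), and 1, DIB1, lower.

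The largest differences outside the mating-type genes were those of MIP6, an RNA-binding protein gene, at -1.65, 0.02 and -0.09, of YLL017W at -0.65, 0.998 and 0.30, and of YNCA0006C. On the low side CPP1 was at 0.53, -0.34 and -0.43, COX5B, a subunit of cytochrome c oxidase, at 0.40, -0.39 and -0.35, PHD1, a regulator of filamentous growth, at 0.13, -0.81 and -0.45, CBT1 at 0.09, -0.81 and -0.50, and the mitochondrial tRNA gene tQ(UUG)Q at 0.33, -0.78 and -0.11. The lowest of the other strains for MIP6 was -0.66.

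**Figure D4:**
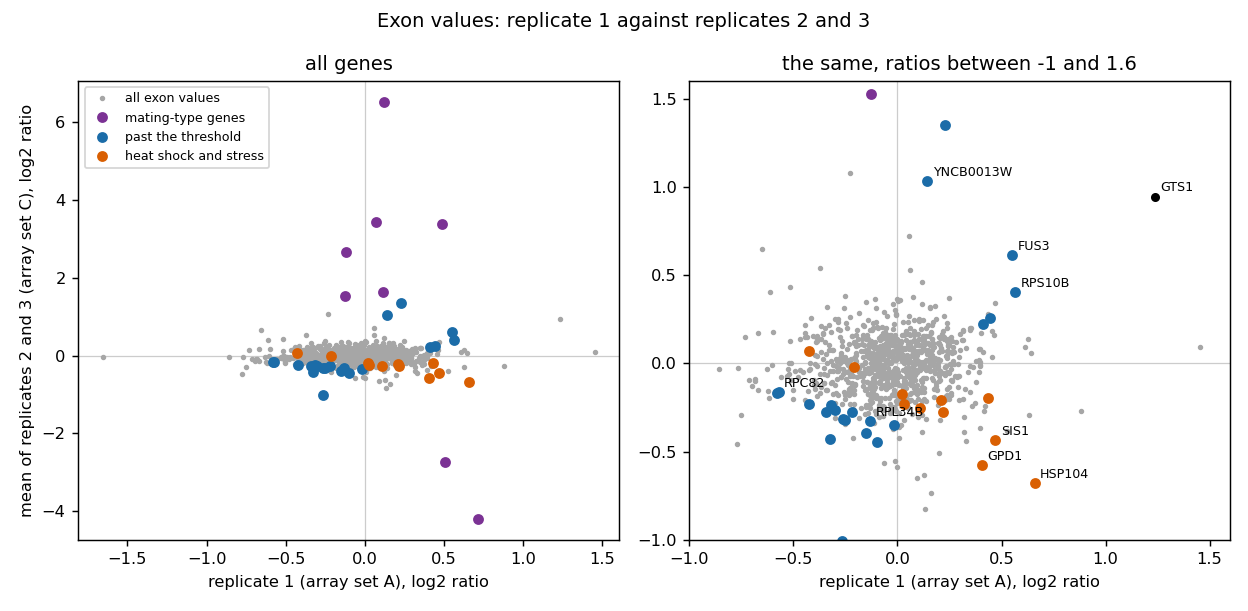
Exon values of all genes as log2 of mutant over wild type, with the mean of replicates 2 and 3 (y axis, array set C) against replicate 1 (x axis, array set A); the right panel repeats the ratios between -1 and 1.6. FUS3 and RPS10B are high on both axes, and HSP104, SIS1 and GPD1 sit at 0.66, 0.47 and 0.41 on the x axis and below 0 on the y axis.

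With each array set taken alone, 83 of 941 genes (8.82%) differed from the mean of the other strains on set C, and 76 of 939 (8.09%) did so on set A, 34 higher and 42 lower (4.47%). The set A comparison sets 1 replicate of rpl34aDi against 8 replicates, each of another strain. Its p-values come from the spread between replicates of a strain on other array sets, so the spread on set A was not measured. On set C the lowest p-values were those of YNCB0013W, SIS1, LYS14, which activates lysine synthesis genes (-0.38, adjusted p = 0.0021), and COX5B (-0.46, adjusted p = 0.00265). On set A they were those of MIP6 (-1.69, adjusted p = 0.00163) and SIP2 (-0.46, adjusted p = 0.00435), a subunit of the Snf1 kinase.

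**Figure D5:**
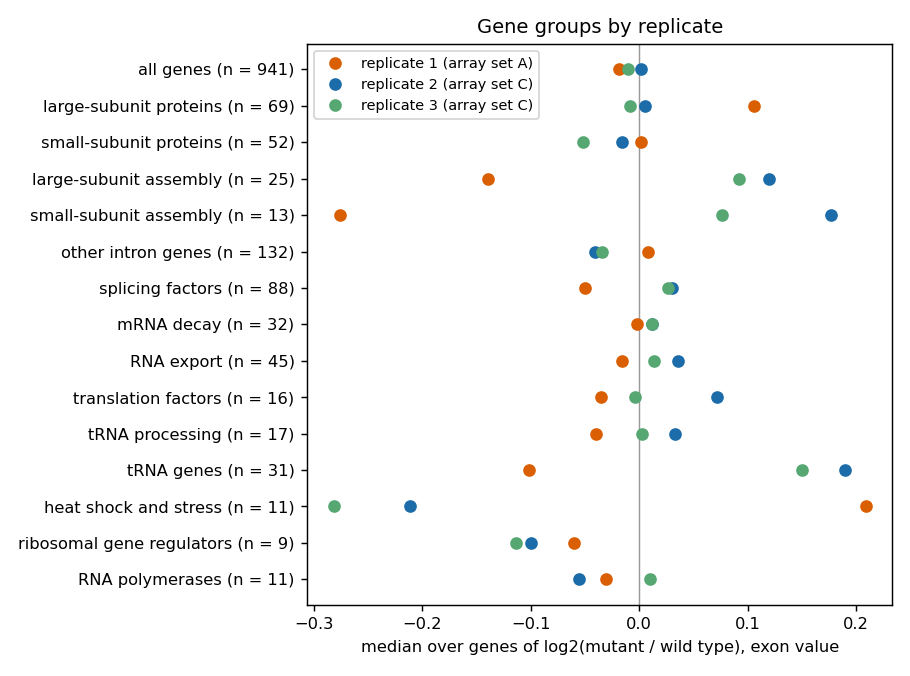
Median exon value, as log2 of mutant over wild type (x axis), of gene groups (y axis, with the number of genes measured) in each replicate of rpl34aDi. The heat-shock and stress group was at 0.21 in replicate 1, -0.21 in replicate 2 and -0.28 in replicate 3, and small-subunit assembly genes were at -0.28, 0.18 and 0.08.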

How the data were processed

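RNA from each strain and from wild type was extracted with acid phenol, turned into aa-dUTP cDNA, dye-coupled and hybridised to 2-colour splicing-sensitive arrays. The deposited unit is the log2 ratio, mutant on top, after normalisation by the authors with a Goulphar-derived script that called marray and limma. Background correction, spot filters and versions: not given in the sources used here. No counts exist, so precision rests on the number of arrays. The values of the 6 spots of a feature were averaged, then the arrays of both dye orientations. Exon, intron and junction features were told apart by a rule deduced from layout position on the array, not by a platform annotation. Under that rule the deleted intron was the lowest feature of its gene in all 17 strains. An untested part of the rule placed 15 genes. The 50 named features without such a kind and 79 without a gene symbol were not used. All 982 symbols matched RefSeq.

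Each gene's mean was tested against 0 with limma 3.58.1 (lmFit and eBayes, R 4.3.3) over all 17 strains and 39 replicates, with Benjamini-Hochberg adjustment over the genes of that scale. The comparison with other strains used the mean of the 16 strain means. statmod 1.5.0 served for random blocks, and Python 3.11.15 with pandas 2.3.3, numpy 2.4.6 and matplotlib 3.10.9 for tables and plots. The procedure was tested on simulated data. Genes named are RPL34A, RPL34B, the called genes, the 10 genes each way with the largest mean whose replicates all shared a sign, the 5 largest each way of the index and the 10 largest differences between array sets in each direction. Paralogs and members of gene groups were added beside them. The members and lists were chosen with earlier results of these data known. Alternatives covered spot averaging, filters, scaling, dye, array set, blocks and left-out replicates.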

Additional observations from a re-analysis of the deposited data

Results flagged for a closer look

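Among 36 genes tested over the arrays of rpl34aDi, 9 had 1 array far from the rest. Chance flags about 1 in 20 groups, but most of these genes were chosen for their calls or large means, to which a single far array can add, so that rate does not apply to them. On the replicate 1 array with the mutant in Cy3 these were RPC82 at -1.004 (the others -0.21 to -0.08), UFD1 at -0.95, RNA14 at -1.46 and PIP2 at -1.31. On the replicate 1 array with the mutant in Cy5 they were MF(ALPHA)1 at 0.12 (the others 5.46 to 7.56), MATALPHA1 at 0.49 and DAL80 at 0.68. The remaining arrays were those of GUP2 in replicate 2 with the mutant in Cy3, at 2.60, and of HIR1 in replicate 2 with the mutant in Cy5, at -3.47.

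The difference of array set C minus array set A passed limma's adjusted threshold for many of the genes named. It was positive for MF(ALPHA)1 (6.40), MF(ALPHA)2 (3.36), MATALPHA1 (2.89), STE3 (2.78), MATALPHA2 (1.65), MIP6 (1.62), HMRA2 (1.52), YLL017W (1.30), YNCA0006C (0.91), YNCB0013W (0.89), PIP2 (0.42), UFD1 (0.41) and RPC82 (0.41). It was negative for MFA2 (-4.91), MFA1 (-3.24), HSP104 (-1.34), GPD1 (-0.98), CPP1 (-0.91), SIS1 (-0.90), tQ(UUG)Q (-0.77), COX5B (-0.76), PHD1 (-0.76), CBT1 (-0.75), ADR1 (-0.50), RPL34A (-0.41) and RPS6A (-0.33).

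The difference between rpl34aDi and the mean of the other strains passed the threshold for the RPL34A index (-2.18), the RPL34A intron (-2.09), the exon value of YNCB0013W (0.77) and the UBC4 intron (0.43).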

How the results depend on the processing

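Against 7 higher and 15 lower exon calls, the counts were 17 and 29 with the median of the spots, 18 and 35 with arrays scaled by their spread, 25 and 51 from Cy3 arrays, 52 and 70 from array set A and 59 and 104 from array set C. They were 24 and 38 with the replicate as a random block over single arrays, and 0 and 0 from Cy5 arrays, with array set as a block, or with the 3 replicates alone. With at least 4 spots 7 genes were lower, as only 11 of the 22 genes were then measured. With the replicate block they were 20 and 24, including all 22. Leaving out a replicate gave 0 to 15 higher and 0 to 25 lower. Chosen after the data were seen, leaving out the replicate 1 Cy3 array gave 12 and 24, and the replicate 2 Cy5 array 17 and 32. All 22 kept their sign wherever measured.

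Against 1 index call there were 0 with at least 4 spots or the 3 replicates alone, 5 from Cy3 arrays, 11 with array set as a block, 39 and 9 from sets A and C, and 2 and 10 without those arrays; leaving out a replicate gave 1 to 1. Against 1 call relative to other strains there were 2 from Cy3 arrays, 0 from Cy5 arrays, 76 and 83 within sets A and C, 2 without the replicate 1 Cy3 array, and 0 to 2 without a replicate. Block fits and the 3 replicates alone gave no value for that comparison.

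The RPL34A exon mean was called from array set A (0.40), and leaving out a replicate gave -0.01 to 0.20. Not called in these settings, it was below 0 from Cy3 arrays (-0.0135), from array set C and without replicate 1 (-0.0147 each) and without the replicate 1 Cy3 array (-0.0066). The RPL34A intron was not called from the 3 replicates alone (-1.97, adjusted p = 0.309, limma). RPL34B was not called from Cy5 arrays (-0.17), with array set as a block (-0.21), from array set A (-0.13), or from the 3 replicates alone (-0.26), and leaving out a replicate gave -0.33 to -0.20. The cause was not tested. For 37 further results on single genes, 437 of 646 values kept direction and call, 155 lost the call, 48 gained it and 6 changed sign, none of them called: the RPL34B intron from Cy5 arrays (0.18) and without the replicate 1 Cy3 array (0.0709), the RPL34B index from Cy3 arrays (-0.0217), TDH1 with array set as a block (-0.35), and DAL80 from Cy5 arrays (0.0357) and with array set as a block (0.31). Replicate numbers were not taken to pair the samples: correlations of deviations between same-numbered samples averaged 0.22, 0.17 and 0.19 for numbers 1, 2 and 3, above the -0.20, -0.04 and -0.02 of differently numbered samples, but single pairs went down to -0.27, and the labels name no shared source.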
